A study of Mus musculus with 20 samples.

Results

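The constitutive proteasome genes were followed in primary mouse embryonic fibroblasts through 3 h of inflammatory stimulation. They were taken as all gene symbols made of Psma, Psmb, Psmc or Psmd and a number, leaving out Psmb8, Psmb9 and Psmb10, which encode the catalytic subunits of the immunoproteasome. The rule matched 36 symbols, of which 34 reached a level of 1 CPM (counts divided by the scaled library size in megareads) in 2 or more of 20 libraries and were among the 14023 genes tested. They form a core of 14 genes (7 Psma and 7 Psmb) and a cap of 20 genes (6 Psmc and 14 Psmd). The 2 genes under the limit were Psma8, known from the testis, with 0 to 6 counts per library, and Psmb11, known from the thymus, with 0 to 1 counts.

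The proteasome is the barrel-shaped protease that degrades proteins tagged with ubiquitin. Its core stacks rings of alpha subunits, which gate the entrance and are encoded by the Psma genes, around rings of beta subunits, encoded by the Psmb genes, and the products of Psmb5, Psmb6 and Psmb7 cut the substrate. The cap binds ubiquitin chains and feeds substrates into the core, with its ATPase ring encoded by the Psmc genes and most of its other subunits by the Psmd genes. In NF-kB signalling the proteasome degrades the inhibitor IkBa, which holds the transcription factor in the cytoplasm.

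All cells came from C57BL/6 embryos without functional c-Rel, an NF-kB protein whose gene is Rel. The crel-/- cells carried no other allele named in the labels, and crel-/-RelA-TA-KI cells (here the knock-in) carried an allele of RelA, another NF-kB subunit, whose change the labels do not spell out. After a night in 0.5% serum, cells were left unstimulated (0 h) or were given bacterial lipopolysaccharide (LPS, 100 ng/ml), interleukin 1 beta (IL-1b, 10 ng/ml) or tumour necrosis factor (TNF, 10 ng/ml) for 0.5, 1 or 3 h. Each of the 20 combinations of genotype and condition was 1 library of polyA RNA, and the labels name no replicates. In tests of a condition the 2 genotypes stood in for replicates, and in tests of genotype the 10 conditions did. A p-value here therefore reflects how far single libraries scatter, part of which may be technical. In tests of a condition that scatter also holds any difference in response between the genotypes, so a change confined to 1 genotype may not pass. The labels name no separate cell preparations, so a difference between genotypes cannot be told apart from one between preparations. In bulk RNA, fewer cells of a type and less RNA per cell cannot be told apart.

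Library totals lay between 9248151 and 12574135 counts. Rel, the targeted gene, was at 16.2 to 62.03 CPM in crel-/- and 16.5 to 34.9 CPM in knock-in libraries. The labels do not say which exons are deleted, so these counts check nothing about the genotype. Fibroblast markers (10 of 10 tested) summed to 53528 to 82291 CPM, with 82291 and 80947 CPM in the LPS 3 h libraries, above the rest. Macrophage markers (10 of 10 tested) summed to 2418 to 5027 CPM, with 4431 and 3750.2 CPM at 0 h and 3702 and 2509.6 CPM at LPS 3 h, where 7 of 10 were lower and 1 higher in the test used below, beside 28.3% and 29.2% of the genes tested. Neural and Schwann cell markers (5 of 6 tested) summed to 6.10 to 65.7 CPM, with 65.7 and 20.8 CPM at 0 h and 13.04 and 6.13 CPM at LPS 3 h, where 3 of 5 were lower. Epithelial markers (2 of 4 tested, all but Epcam and Cdh1) summed, over all 4, to 1.35 to 4.33 CPM. Endothelial markers (3 of 4 tested, all but Pecam1) summed, over all 4, to 11.02 to 24.4 CPM in the other 18 libraries and to 76.1 and 61.3 CPM at LPS 3 h, where 1 of 3 was higher. Kdr was at 10.0 and 10.5 CPM at 0 h and 69.7 and 54.3 CPM at LPS 3 h, while Tek went from 7.66 and 7.47 CPM to 5.65 and 6.13 CPM. The LPS 3 h libraries also had the lowest scaling factors, 0.722 and 0.732, against 0.979 or more elsewhere. The part of these cell types in the results below was not tested.

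Promoter sequences are shown for Psma6, which differed between the genotypes, and for the catalytic members with a window (Psmb5 and Psmb6). They are also shown for Psmd11 and Psmd12, picked from 6 cap genes whose scaled CPM at 3 h of every agent lay above all earlier libraries. Psmd2 is added, whose scaled CPM were high at LPS 3 h, as were those of other cap genes. RefSeq windows (GRCm38.p6, the assembly of mm10) from 250 bases before to 50 bases after a start were found for 28 of the 34 members, 11 core and 17 cap. They were searched on both strands for TGACNNNGC (the core of the antioxidant response element, bound by NRF factors), CCAAT (bound by NF-Y), CCGGAAG (an ETS factor core) and GGGANNTTC (an NF-kB-like motif). Matches overlapped in 1 window, that of Psmd14, between CCAAT matches. The stretches below run 5′ to 3′ on the strand of the gene, from 250 bases before to 25 bases after the start, with motif matches in capitals.
Psma6, chr12:55383972-55384246, plus strand: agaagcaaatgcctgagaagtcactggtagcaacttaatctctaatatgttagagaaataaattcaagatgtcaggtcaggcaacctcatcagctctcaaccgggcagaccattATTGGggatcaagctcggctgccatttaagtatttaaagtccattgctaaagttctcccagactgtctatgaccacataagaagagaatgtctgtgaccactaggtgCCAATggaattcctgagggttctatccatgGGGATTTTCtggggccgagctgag
Psma6, chr12:55398575-55398849, plus strand: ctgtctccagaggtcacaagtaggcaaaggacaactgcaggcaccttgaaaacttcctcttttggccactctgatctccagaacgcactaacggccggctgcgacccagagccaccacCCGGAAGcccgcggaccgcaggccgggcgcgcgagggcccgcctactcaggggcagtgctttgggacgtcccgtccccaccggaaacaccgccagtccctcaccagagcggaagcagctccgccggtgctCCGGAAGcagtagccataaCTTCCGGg
Psmb5, chr14:54617971-54618245, minus strand: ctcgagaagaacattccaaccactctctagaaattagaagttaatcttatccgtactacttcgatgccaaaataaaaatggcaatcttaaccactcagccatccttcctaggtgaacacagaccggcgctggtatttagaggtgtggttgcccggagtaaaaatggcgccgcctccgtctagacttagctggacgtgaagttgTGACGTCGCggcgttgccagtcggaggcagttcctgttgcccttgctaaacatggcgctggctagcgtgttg
Psmb6, chr11:70525107-70525381, plus strand: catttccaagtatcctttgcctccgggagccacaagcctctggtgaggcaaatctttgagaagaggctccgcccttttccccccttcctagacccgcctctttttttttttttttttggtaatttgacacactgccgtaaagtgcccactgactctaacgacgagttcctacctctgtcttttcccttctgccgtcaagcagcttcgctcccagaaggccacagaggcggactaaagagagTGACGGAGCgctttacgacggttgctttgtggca
Psmd2, chr16:20651402-20651676, plus strand: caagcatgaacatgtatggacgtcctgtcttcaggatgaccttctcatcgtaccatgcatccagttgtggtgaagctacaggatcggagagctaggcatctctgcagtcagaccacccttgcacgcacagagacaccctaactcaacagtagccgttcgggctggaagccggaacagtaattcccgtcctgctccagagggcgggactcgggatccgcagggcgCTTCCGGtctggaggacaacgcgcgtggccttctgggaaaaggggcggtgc
Psmd11, chr11:80428365-80428639, plus strand: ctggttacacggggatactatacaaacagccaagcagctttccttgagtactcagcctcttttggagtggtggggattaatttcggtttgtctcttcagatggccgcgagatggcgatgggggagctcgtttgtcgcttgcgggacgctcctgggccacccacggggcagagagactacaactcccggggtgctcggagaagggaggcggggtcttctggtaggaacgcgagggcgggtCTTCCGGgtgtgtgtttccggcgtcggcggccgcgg
Psmd12, chr11:107479278-107479552, plus strand: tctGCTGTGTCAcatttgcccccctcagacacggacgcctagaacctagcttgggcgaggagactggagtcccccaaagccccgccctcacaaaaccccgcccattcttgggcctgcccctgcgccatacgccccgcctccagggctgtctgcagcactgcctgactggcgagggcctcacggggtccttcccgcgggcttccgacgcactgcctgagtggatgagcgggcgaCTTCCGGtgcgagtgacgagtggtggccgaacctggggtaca

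The ETS core stood in 10 of 28 members, 1 of 11 core genes (Psma6, in the second of its windows) and 9 of 17 cap genes, among them Psmd2, Psmd11 and Psmd12, and in 9.93% of all genes with a window. All cap promoters printed above hold it, so they do not stand for the whole cap. Of the other cap genes above all earlier libraries at 3 h, Psmc2 held it, Psmd1 and Psmd14 did not, and Psmd3 had no window. The antioxidant response element core stood in Psmb5, Psmb6, Psmc6, Psmd9 and Psmd12, and in 14% of all genes. CCAAT stood in 6 core and 5 cap genes, 39.3% of members with a window beside 41.1% of all genes. The NF-kB-like motif stood in Psma6 alone, in the first of its windows, and in 4.47% of all genes. Such matches describe the letters and do not show binding.

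At LPS 3 h most core genes rose against 0 h, and the core median stood above that of the cap. In edgeR's quasi-likelihood test with Benjamini-Hochberg adjustment, 12 of 14 core genes rose, with a median log2 fold change over all 14 of 0.50. Of 20 cap genes 14 rose and 1, Psmd5, fell, with a median of 0.23. The background was high: 57.5% of the genes tested passed the adjusted threshold of 0.05, 29.2% higher and 28.3% lower, with a median of -0.01. By class the medians were 0.72 for Psma (7 of 7 higher), 0.41 for Psmb (5 of 7), 0.18 for Psmc (3 of 6) and 0.25 for Psmd (11 of 14). The family's direction rests on the scaling, since scaling by library totals alone moved the median of all genes to -0.62, that of the core to -0.10 and that of the cap to -0.38. That scaling called 3 members higher and 24 lower, beside 10816 of the 14023 genes tested called in either direction. The core median was 0.27 above the cap median under both scalings. Scaling moves all genes of a library alike, so it cannot test this gap. The count of members higher was 17 without the crel-/- LPS 3 h library and 17 without the knock-in 0 h library.

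**Figure D1:**
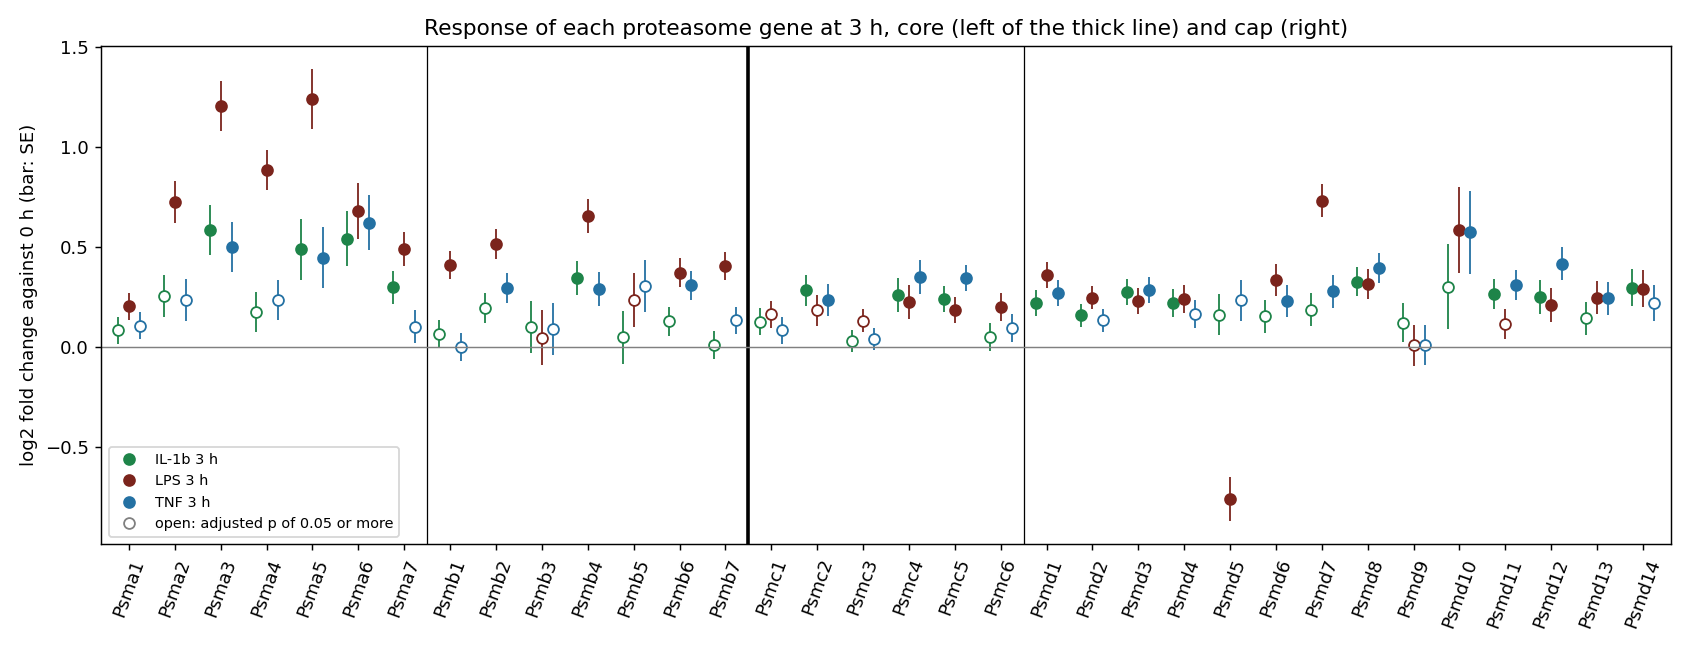
log2 fold change of each of the 34 genes at 3 h of IL-1b, LPS or TNF against 0 h, with the standard error as a bar; filled points passed the adjusted threshold of 0.05. LPS points of several core genes stand above those of IL-1b and TNF, and in the cap Psmd7 is high (0.73) and Psmd5 low (-0.76) with LPS.

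Within a library, the ratio of summed core to summed cap CPM does not depend on the scaling between libraries. The core sum was 844 and 808 CPM (crel-/- first, then knock-in, here and below) at 0 h and 1296 and 1118 CPM at LPS 3 h. The cap sum was 1696 and 1631 CPM at 0 h and 2009 and 1955 CPM at LPS 3 h. On the log2 scale the core to cap ratio was -0.63 and -0.81 at LPS 3 h and lay between -1.05 and -0.91 in the other 18 libraries, so both LPS 3 h libraries stood above all others. Against 0 h the ratio changed by 0.37 in crel-/- cells (95% counting interval 0.32 to 0.43) and by 0.21 in knock-in cells (0.16 to 0.26), a mean of 0.29 ± 0.12 (SD, n = 2). The intervals cover counting error only. Without Psmd5, Psmd9 and Psmd10, which encode assembly chaperones of the cap and not subunits, the mean change was 0.27.

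**Figure D2:**
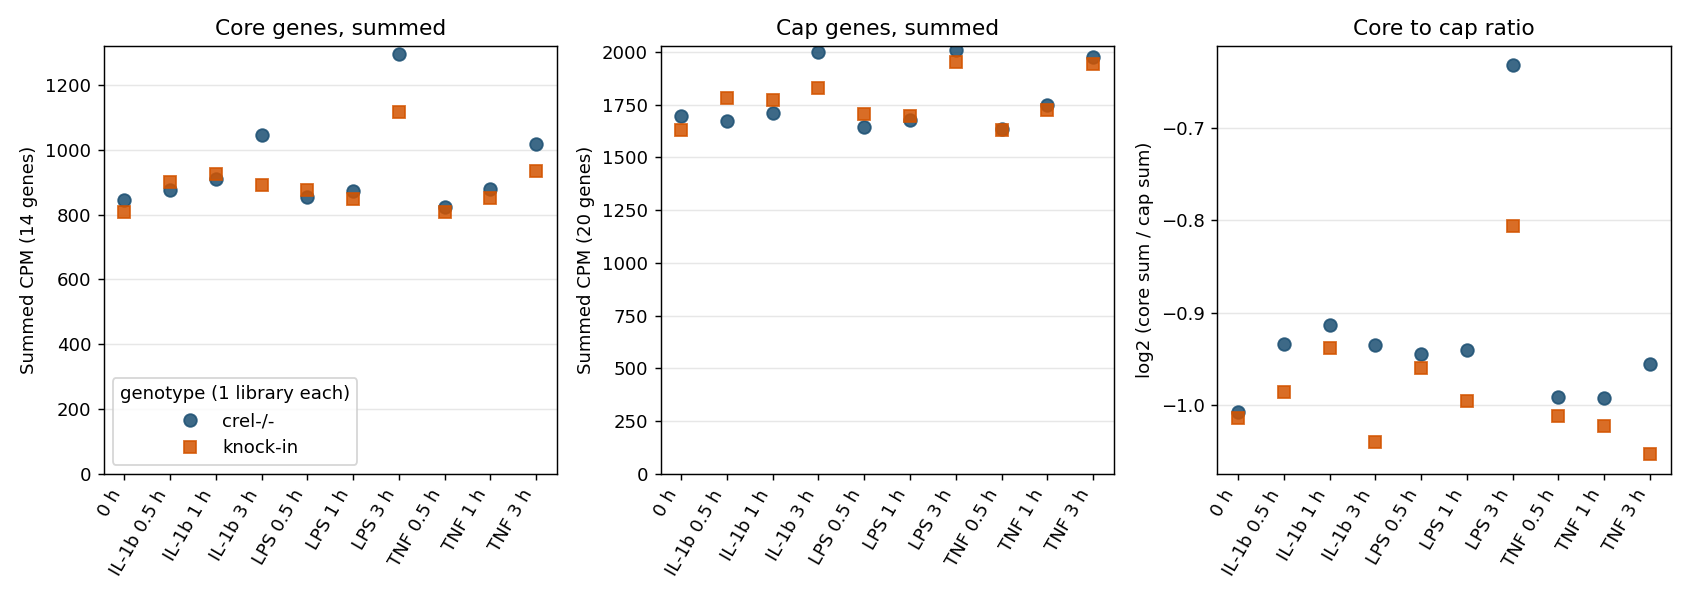
Summed CPM of the 14 core genes (left) and the 20 cap genes (middle), and the log2 ratio of these sums (right), with 1 point per library. The ratios at LPS 3 h (-0.63 and -0.81) lie above those of the other 18 libraries (-1.05 to -0.91).

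Among the alpha ring genes, Psma5 (ENSMUSG00000068749.7, chromosome 3 from 108256926 to 108279974 on the plus strand of mm10) had the largest change. Its level was 13.5 and 11.1 CPM at 0 h and 31.9 and 26.3 CPM at LPS 3 h, with 11.1 to 20.9 CPM in the other 18 libraries. Both LPS 3 h libraries stood above all others, and the log2 fold change was 1.24 (SE 0.15, edgeR adjusted p = 1.08e-05). Psma3 (ENSMUSG00000060073.7, chromosome 12 from 70974621 to 70996347 on the plus strand of mm10) was at 12.7 and 12.9 CPM at 0 h and 31.5 and 27.7 CPM at LPS 3 h, above its range of 12.2 to 21.9 CPM elsewhere. Its log2 fold change was 1.21 (SE 0.125, edgeR adjusted p = 2.51e-06). Psma4 (ENSMUSG00000032301.11, chromosome 9 from 54950790 to 54958030 on the plus strand of mm10) was at 53.02 and 52.3 CPM and then 102 and 92.3 CPM, again without overlap with the 48.9 to 68.4 CPM of the other libraries, and changed by 0.88 (SE 0.10, edgeR adjusted p = 5.28e-06) on the log2 scale. These 3 genes were the members called higher with totals alone. Psma2 (0.72), Psma6 (0.68), Psma7 (0.49) and Psma1 (0.20) also rose, but with totals alone Psma2 (0.12) and Psma6 (0.075) no longer passed and Psma7 (-0.11) and Psma1 (-0.40) turned negative.

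The beta ring genes changed less. Psmb4, a non-catalytic member (ENSMUSG00000005779.10, chromosome 3 from 94884093 to 94886961 on the minus strand of mm10), was at 105 and 106 CPM at 0 h and 178 and 155 CPM at LPS 3 h, above the 102 to 149 CPM of the other 18 libraries. Its log2 fold change was 0.66 (SE 0.08, edgeR adjusted p = 1.91e-05), and 0.051, no longer past the threshold, with totals alone. Psmb2 was at 59.96 and 65.05 CPM and then 92.4 and 86.4 CPM, above its range elsewhere of 59.96 to 76.9 CPM (log2 fold change 0.51, but -0.088 with totals alone). Psmb1, another non-catalytic member, was at 113 and 107 CPM and then 154 and 138 CPM, above 102 to 121 CPM elsewhere (log2 fold change 0.41, but -0.19 with totals alone). Psmb3 did not pass the test, with a log2 fold change of 0.05 (SE 0.14, edgeR adjusted p = 0.783).

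The catalytic members differed in their values. Psmb7, which encodes the trypsin-like subunit, was at 68.03 and 69.04 CPM at 0 h and 92.3 and 89.4 CPM at LPS 3 h, above the 62.3 to 76.3 CPM of the other libraries (log2 fold change 0.41, SE 0.07, but -0.20 with totals alone). Psmb6, which encodes the caspase-like subunit, was at 83.3 and 78.8 CPM and then 111 and 99.01 CPM, overlapping the 75.3 to 101 CPM seen elsewhere (log2 fold change 0.37, SE 0.07, but -0.23 with totals alone). Psmb5, which encodes the chymotrypsin-like subunit and whose promoter is printed above with that of Psmb6, did not pass. It was at 15.7 and 14.01 CPM and then 19.3 and 15.8 CPM, with overlap, and a log2 fold change of 0.24 (SE 0.13, edgeR adjusted p = 0.148).

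Some members share sequence with other annotated genes, and how the authors treated reads with several matches is not given in the sources used here. Of the 50-base words in its transcripts, Psmb5 shared 54.1% with other genes, Psma5 50%, Psmd9 24.9%, Psmb3 17.8%, Psmd2 17.8%, Psma3 15.4%, Psma4 14.3% and Psmc1 14.1%, so their counts are uncertain. Psma3, Psma5, Psmb3 and Psmb5 were also the 4 lowest core genes, with median levels of 14.7 to 17.1 CPM beside 55.1 to 120.4 CPM in the other 10. Among members sharing under 10% of their words, 9 of 9 core genes rose (median 0.49), and 13 of 17 cap genes rose and 1 fell (median 0.23), beside 29.2% higher and 28.3% lower of all genes tested. With totals alone 0 of these 9 core genes were called higher and 6 had negative values, since Psma3, Psma4 and Psma5 are not among them. Their core to cap ratio changed by 0.32 in crel-/- and 0.16 in knock-in cells. Psma3, Psmb7, Psmc3, Psmd1 and Psmd13 overlap genes on the opposite strand, and since the strand setting of the counting is not given, reads of such pairs may be mixed.

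In the cap, the ATPase genes changed little. Psmc4 was at 72.4 and 65.6 CPM at 0 h and 84.1 and 77.1 CPM at LPS 3 h, Psmc6 at 89.4 and 88.1 CPM and then 103 and 101 CPM, and Psmc5 at 71.3 and 67.3 CPM and then 77.2 and 80.6 CPM. The LPS 3 h levels of Psmc6 stood above those of the other 18 libraries, and those of Psmc4 and Psmc5 overlapped them. Their log2 fold changes were 0.22 (SE 0.09), 0.20 (SE 0.07) and 0.18 (SE 0.07), and with totals alone -0.38, -0.40 and -0.42. Psmc1, Psmc2 and Psmc3 did not pass.

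Psmd7, which encodes the lid subunit paired with the deubiquitinase (ENSMUSG00000039067.4, chromosome 8 from 107580381 to 107588482 on the minus strand of mm10), had the largest rise in the cap. It was at 95.7 and 90.95 CPM at 0 h and 154 and 155 CPM at LPS 3 h, nearly the same in both genotypes and above the 83.99 to 118 CPM of the other 18 libraries. Its log2 fold change was 0.73 (SE 0.08, edgeR adjusted p = 5.73e-06), and 0.13, no longer past the threshold, with totals alone. Psmd14, which encodes that deubiquitinase, was at 70.5 and 60.9 CPM and then 81.4 and 79.5 CPM, with overlap (log2 fold change 0.29, but -0.31 with totals alone).

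The 3 assembly chaperones of the cap had different values. Psmd5 (ENSMUSG00000026869.10, chromosome 2 from 34849734 to 34874968 on the minus strand of mm10) was at 44.9 and 40.7 CPM at 0 h and fell to 24.4 and 26.2 CPM at LPS 3 h, below the 36.3 to 54.3 CPM of the other 18 libraries. Its log2 fold change was -0.76 (SE 0.11, edgeR adjusted p = 5.6e-05), and it fell with totals alone too. Psmd9 was at 26.7 and 25.6 CPM and then 24.5 and 28.04 CPM and did not pass, with a log2 fold change of 0.01 (SE 0.10, edgeR adjusted p = 0.941). Psmd10, which encodes gankyrin, was at 18.2 and 16.8 CPM at 0 h and 34.8 and 18.8 CPM at LPS 3 h, so the crel-/- library was high and the knock-in library lay within the earlier range of 14.8 to 21.5 CPM. Its log2 fold change was 0.58 (SE 0.21, edgeR adjusted p = 0.0318), -0.021 with totals alone and 0.22, no longer past the threshold, without the crel-/- LPS 3 h library.

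**Figure D3:**
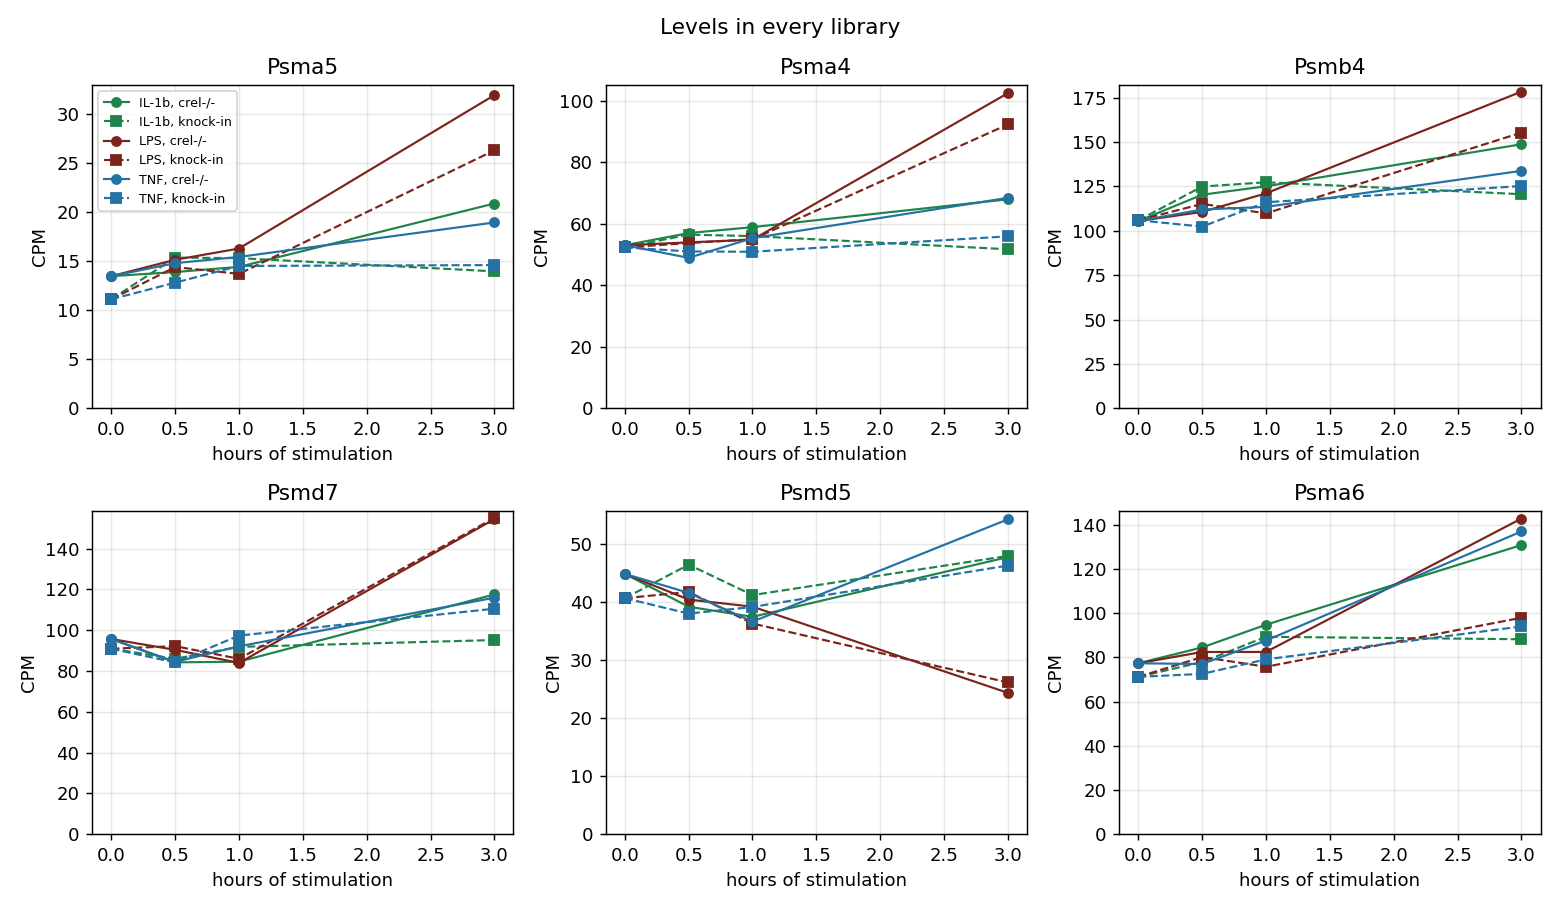
CPM of 6 genes against hours of stimulation, 1 point per library, with circles and full lines for crel-/- and squares and dashed lines for knock-in cells; the 0 h library of a genotype is shared by its 3 lines. Psma5, Psma4, Psmb4 and Psmd7 are highest at LPS 3 h, Psmd5 is lowest there (24.4 and 26.2 CPM), and Psma6 at 3 h is higher in crel-/- than in knock-in cells with each agent.

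Both LPS 3 h libraries lay above the other 18 in 14 members, 9 core (Psma1 to Psma5, Psmb1, Psmb2, Psmb4 and Psmb7) and 5 cap (Psmc1, Psmc6, Psmd1, Psmd2 and Psmd7), a pattern held by 16.3% of the genes tested. They lay below the rest in Psmd5 alone, beside 15.7%. All 6 libraries at 3 h lay above the 14 earlier ones in 6 members, beside 2.91% of the genes tested. These were Psmc2, Psmd1, Psmd3, Psmd11, Psmd12 and Psmd14, all of the cap, singled out after their values were seen. Psmd12 had 65.3 to 80.99 CPM at 3 h and 57.95 to 63.8 CPM before, and Psmd11 had 80.4 to 96.5 CPM and 63.2 to 77.6 CPM. The printed promoters of Psmd11 and Psmd12 belong to these genes.

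**Figure D4:**
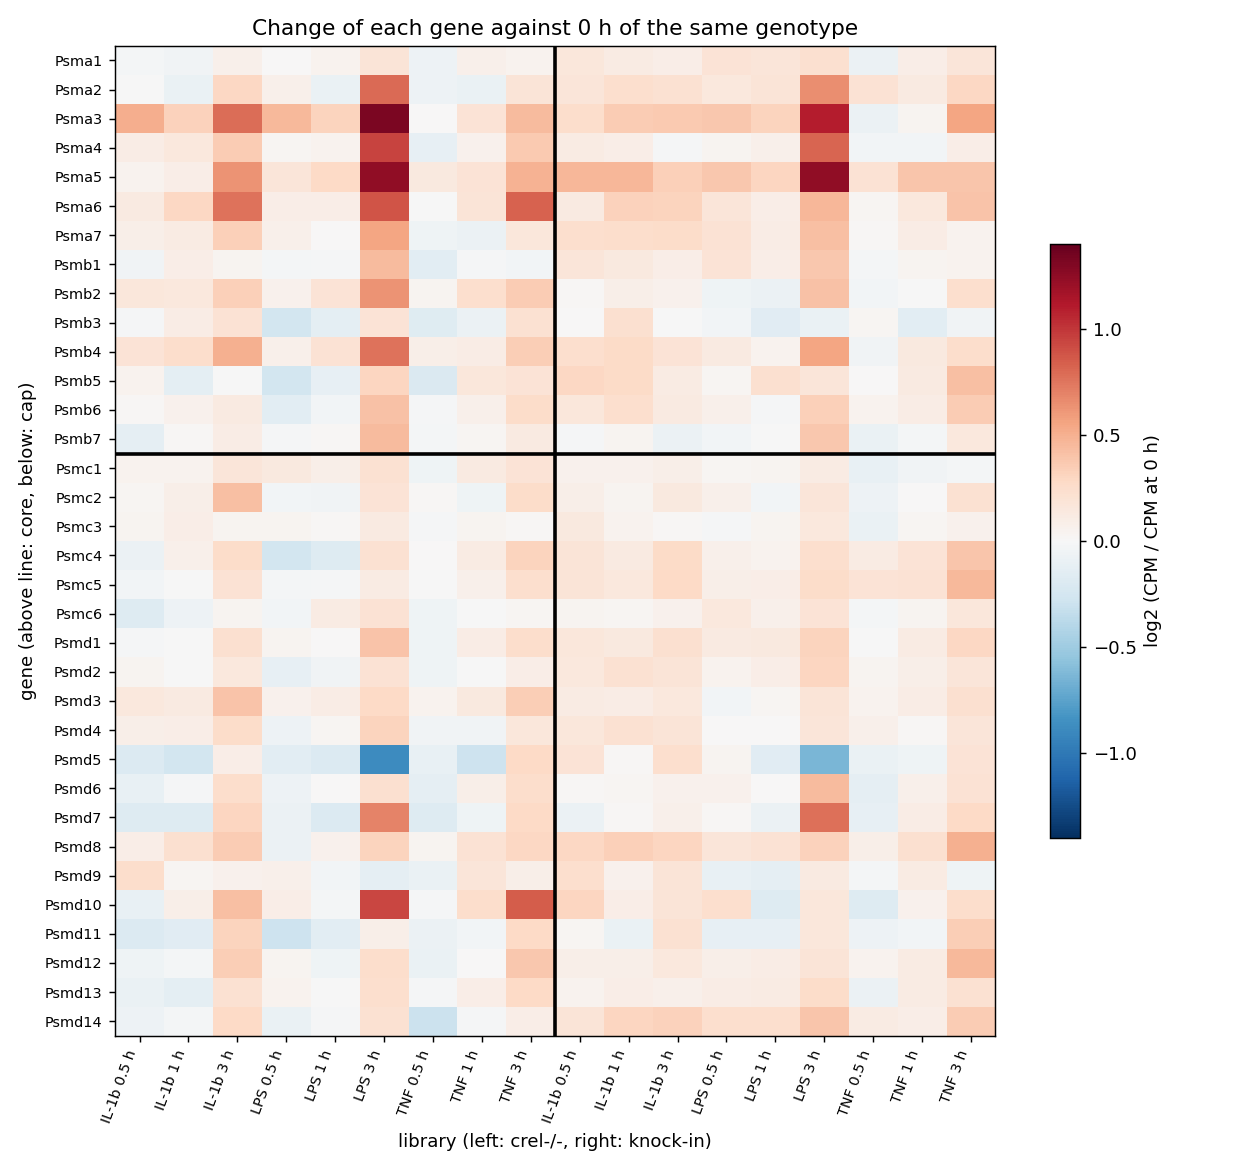
Change of each of the 34 genes (rows) in each stimulated library (columns) against 0 h of the same genotype, as log2 of the ratio of CPM, with core above the horizontal line and crel-/- left of the vertical one. The LPS 3 h columns hold the deepest colours of Psma3, Psma4, Psma5 and Psmd7, and Psmd5 is low in them.

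With IL-1b and TNF at 3 h the core and cap medians were close to each other. With IL-1b, 16 members rose, 5 core (median 0.19) and 11 cap (median 0.22), against 16.9% of the genes tested (13.8% were lower). Psma3 was at 21.9 and 16.7 CPM there, Psma6 at 131 and 88.2 CPM and Psma5 at 20.9 and 13.97 CPM, with log2 fold changes of 0.58, 0.54 and 0.49. The count was 0 without the crel-/- IL-1b 3 h library, 3 without the crel-/- 0 h library, 5 without the knock-in 0 h library, 10 with no filter on low counts and 2 with totals alone. With TNF, 18 members rose, 6 core (median 0.26) and 12 cap (median 0.24), against 18.7% of the genes tested (16% were lower). Psma6 was at 137 and 93.95 CPM, Psmd10 at 32.7 and 19.98 CPM and Psma3 at 17.2 and 18.9 CPM, with log2 fold changes of 0.62, 0.57 and 0.50. That count was 8 without either 0 h library, 10 without the crel-/- TNF 3 h library and 5 with totals alone. In each of these fits without a library, fewer of all genes tested passed too, so the drop in counts is not particular to the members. For both agents 0 members were lower in edgeR, in DESeq2, in limma-voom and in edgeR at an unadjusted p under 0.05.

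Few members changed before 3 h. At 0.5 h, over the 3 agents, 0 members passed in edgeR, DESeq2 or limma-voom, 1 was higher and 0 lower in edgeR at an unadjusted p under 0.05, and 5.43% of the genes tested passed. At 1 h Psmd8, a lid subunit gene, was higher by 0.20 on the log2 scale and no other member passed, with 7.12% of the genes tested higher. No member passed with totals alone in that direction, with no filter, or when any 1 of 7 of the 8 libraries compared was left out, all but the knock-in TNF 1 h library. Between 1 and 3 h of LPS, 21 members rose (11 core and 10 cap) and Psmd5 fell (-0.58), against 25.9% higher and 25.3% lower. Psma5 (0.95), Psma3 (0.89) and Psmd7 (0.86) had the largest values. With totals alone the LPS counts were 4 higher and 17 lower, beside 9935 of the 14023 genes tested called in either direction. TNF between 1 and 3 h raised 9 members, against 12.2%, with Psma6 (0.46), Psmd5 (0.41) and Psma3 (0.38) first. The TNF count was 1 to 4 when any 1 of the 4 libraries was left out. IL-1b raised Psmd11 (0.39) and Psmd7 (0.27), against 10.6%, and 1 member was left without the crel-/- IL-1b 1 h, the crel-/- IL-1b 3 h or the knock-in IL-1b 1 h library and 7 without the knock-in IL-1b 3 h library.

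Compared directly, LPS exceeded TNF at 3 h in 10 members, 9 core genes and Psmd7, with a core median of 0.32 and a cap median of 0.01, and 24.3% of the genes tested were higher and 24% lower. Psma5 (0.79), Psma3 (0.71) and Psma4 (0.65) had the largest values, and Psmd5 (-0.99) and Psmd11 (-0.20) were lower. The call on Psmd11 was lost with RLE scaling, in DESeq2, with no filter and without any 1 of the 4 libraries. LPS exceeded IL-1b in 10 members, again 9 core genes and Psmd7, with medians of 0.31 and 0.01, and 23.8% of the genes tested were higher and 23.4% lower. Psma5 (0.75), Psma4 (0.71) and Psma3 (0.62) came first, and Psmd5 was lower (-0.92), with 3 members lower without the knock-in IL-1b 3 h library. With totals alone 0 members were higher and 25 lower than with TNF, and 1 higher and 22 lower than with IL-1b. Of the 14023 genes tested that scaling called 9447 against TNF and 9229 against IL-1b, in either direction. Both comparisons use the same LPS 3 h libraries.

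Between the genotypes, Psma6 (ENSMUSG00000021024.12, chromosome 12 from 55384222 to 55418454 on the plus strand of mm10), an alpha ring gene, was lower in the knock-in. In crel-/- cells it was at 77.3 CPM at 0 h and 131 (IL-1b), 143 (LPS) and 137 CPM (TNF) at 3 h. In knock-in cells it was at 71.2 CPM at 0 h and 88.2, 97.9 and 93.95 CPM at 3 h, so the genotypes did not overlap at 3 h. Over the 10 matched pairs it was lower in 10 of 10, by a log2 difference of -0.24 (SE 0.06, edgeR adjusted p = 0.0184), with 7.81% of the genes tested lower and 7.99% higher. The pairs are conditions and not replicate cell preparations. Psma6 is described because it passed this test. The shares of all genes lower in 10 of 10 pairs, or without overlap of the genotypes at 3 h, were not counted. The difference at 3 h minus that at 0.5 h was -0.47 (SE 0.06, edgeR adjusted p = 0.00362), with 1.76% of the genes tested lower and 1.68% higher in this sense. Its first promoter window, printed above, is the one with the NF-kB-like match.

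No other member passed either genotype test. In edgeR, DESeq2 and limma-voom 0 members were higher in the knock-in. At an unadjusted p under 0.05 edgeR gave 0 higher and 4 lower over all pairs, and 0 higher and 10 lower for 3 h against 0.5 h. The share of all genes tested at the unadjusted threshold was not counted, so these counts have no background beside them. Psmd10 had log2 differences of -0.27 (SE 0.10, edgeR adjusted p = 0.0756) over all pairs and -0.66 (SE 0.17, edgeR adjusted p = 0.0642) for 3 h against 0.5 h. Leaving out the crel-/- or the knock-in IL-1b 0.5 h library gave 3 members lower over all pairs, and leaving out the crel-/- IL-1b 1 h library gave 2. Leaving out the crel-/- or the knock-in IL-1b 3 h library gave 2 lower for 3 h against 0.5 h.

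Against 0 h of the same genotype, Psma6 changed by 0.88 and 0.46 with LPS, 0.76 and 0.31 with IL-1b and 0.82 and 0.40 with TNF at 3 h on the log2 scale. Psmd10 changed by 0.93 and 0.16, 0.42 and 0.18 and 0.84 and 0.25. The median core change with LPS was 0.59 and 0.41, smaller in the knock-in for 13 of 14 genes, and the median cap change was 0.21 and 0.19, smaller for 8 of 20. With IL-1b these medians were 0.31 and 0.12 for the core (10 of 14 smaller) and 0.25 and 0.18 for the cap (12 of 20). With TNF they were 0.24 and 0.24 for the core (7 of 14) and 0.25 and 0.21 for the cap (8 of 20). The median change over all genes tested was -0.022 and -0.0185 with LPS, 0.0103 and 0.008 with IL-1b and -0.0047 and -0.0031 with TNF. The share of all genes with a smaller change in the knock-in was not counted, so these counts of members have no background beside them. Each of these values rests on 1 library per genotype and condition, and all changes of a genotype subtract the same 0 h library.

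Per kilobase of exon model, levels differed widely between the members. The median over 20 libraries was highest for Psmb1 (108 CPM per kb), Psmd8 (101) and Psma2 (69.9), and lowest for Psmd9 (3.73), Psma3 (4.19) and Psmd5 (5.61).

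Other genes of the pathway were counted from lists with 33 genes, all tested. At LPS 3 h all 3 immunoproteasome genes rose, Psmb9 by 3.83, Psmb10 by 3.10 and Psmb8 by 3.09 on the log2 scale. Their summed level was 45.1 and 50.3 CPM at 0 h and 519.6 and 386 CPM at LPS 3 h, while Psmb5, Psmb6 and Psmb7 together were at 167 and 162 CPM and then 222 and 204 CPM. The immunoproteasome sum was 178 and 51.8 CPM with IL-1b and 168 and 48.4 CPM with TNF at 3 h, higher in the crel-/- than in the knock-in library each time. None of the 3 genes passed against 0 h with either agent, in a test that counts such a difference between genotypes as scatter. Psmb9 was lower in the knock-in over all pairs, by -0.57 (SE 0.15, edgeR adjusted p = 0.0248) on the log2 scale.

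**Figure D5:**
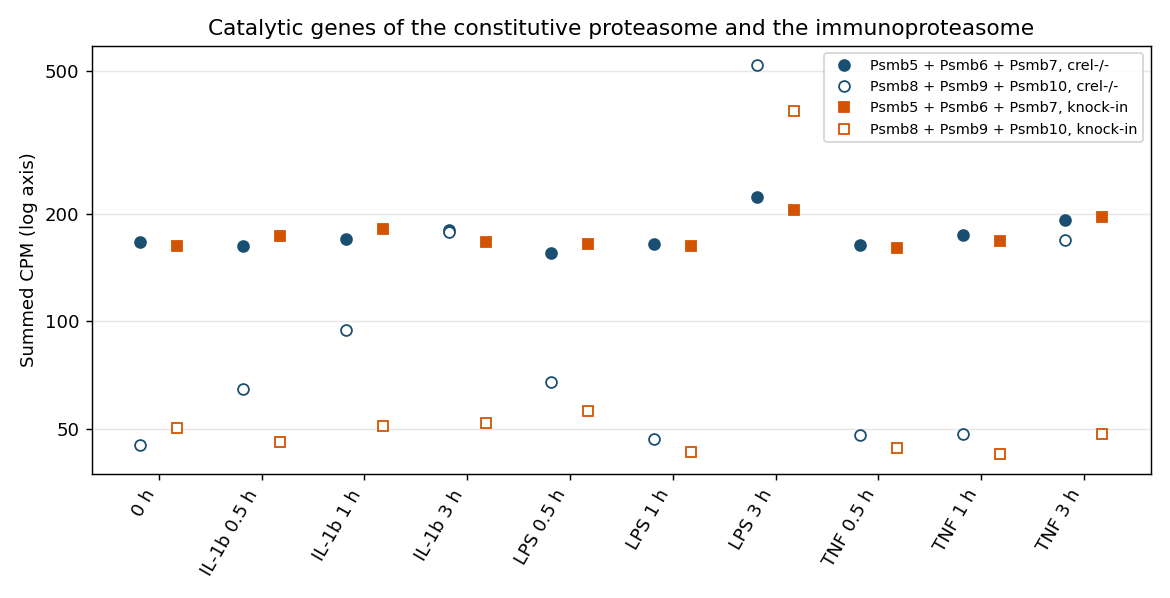
Summed CPM of Psmb5, Psmb6 and Psmb7 (filled) and of Psmb8, Psmb9 and Psmb10 (open) in each of the 20 libraries, on a log axis. At LPS 3 h the immunoproteasome sums (519.6 and 386 CPM) exceed the constitutive ones (222 and 204 CPM).

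At LPS 3 h 29.2% of all genes tested were higher and 28.3% lower, and of the lists below the chaperones, the further cap genes (2 of 5 each) and the ubiquitin genes (2 of 10) had shares near or under the first of these. Of the 5 activator and inhibitor genes, 4 rose at LPS 3 h: Psme1 (1.73) and Psme2 (1.73), which encode the PA28 activator, Psme4 (0.60) and Psme3 (0.42). Of 5 core assembly chaperones 2 rose, Pomp (0.84), the maturation factor of the core, and Psmg4 (0.83). Of 5 further cap components and cap-bound enzymes 2 rose, Sem1 (0.30) and the deubiquitinase gene Usp14 (0.21). Among 5 genes that control proteasome gene transcription, Nfe2l2 (1.24), Nfe2l1 (0.75), which encodes the factor that induces proteasome genes, and Vcp (0.30) rose, and Ddi2, whose product cleaves that factor, fell (-0.73). Of 10 ubiquitin and delivery genes, Rps27a (1.51) and the ubiquitin-activating enzyme gene Uba1 (0.53) rose. Rps27a lay near the filter limit, at 0.89 and 1.44 CPM at 0 h and 4.50 and 2.25 CPM at LPS 3 h, within its range of 0.89 to 6.50 CPM elsewhere. With libraries scaled by totals alone the signs of 6 of the genes named here flipped, with mean log2 changes of -0.19 for Psme3, -0.0061 for Psme4, -0.30 for Sem1, -0.39 for Usp14, -0.30 for Vcp and -0.07 for Uba1. The others named kept theirs. With IL-1b at 3 h 3 of 5, 2 of 5, 1 of 5, 4 of 5 and 4 of 10 genes of these lists rose, in the same order, beside 16.9% of the genes tested. With TNF 2 of 5 rose and Psmf1 fell in the first list, and 1 of 5, 2 of 5, 2 of 5 and 5 of 10 rose in the others, beside 18.7% higher and 16% lower. With so few genes a list, 1 of 5 is about the share over all genes. Over all pairs Psme2 (-0.34), Pomp (-0.16), Nfe2l1 (-0.23) and Nfe2l2 (-0.22) were lower in the knock-in, and Psme4 (0.11) was higher, beside 7.81% and 7.99% of the genes tested.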

How the data were processed

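The 20 libraries were made from polyA RNA with a stranded kit and read from a single end over 50 nt, per the labels' protocols. The deposited table holds whole-number counts for each gene without normalization. The submitters' processing notes name cutadapt 1.12, STAR, featureCounts 1.5.1, DESeq2 and mm10. Not given in the sources used here were other versions, the annotation, how strand was set in counting and what was done with multi-matching reads. A gene name table paired 45143 of 45706 identifiers with symbols.

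A level of 1 CPM of the unscaled total in 2 or more libraries was required. The 14023 genes that reached it (99.9% of counts) were tested with edgeR 4.0.16 in R 4.3.3: TMM scaling, robust quasi-likelihood F test, Benjamini-Hochberg adjustment over all of them, threshold 0.05. The model held genotype and condition (9 residual degrees of freedom). The test of 3 h against 0.5 h nested genotype in time (6 residual degrees of freedom). Apart from this filter, CPM use the scaled library sizes. Standard errors were derived from the log2 fold change and its F statistic. A floor of 3 counts equals 0.239 to 0.324 CPM of the unscaled total. Alternatives were RLE and total-count scaling, DESeq2 1.42.0, limma-voom (limma 3.58.1), no filter, the fit without both LPS 3 h libraries and each library left out. Members sharing under 10% of their words were added after seeing the data. The scripts were tested on simulated data.

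Members, lists and motifs were chosen with earlier results of these data known. Values per library are given for the 3 largest calls of each class at LPS 3 h, the catalytic genes, the chaperones and members called between genotypes. For other comparisons the 3 largest calls in each direction are named, and pathway genes are named where they passed at LPS 3 h. Shared words were counted in the GENCODE transcripts of mm10. Promoters come from RefSeq, and protein sequences were not used here. Some genes of the pathway and marker lists enter counts and sums but are not reported here by name.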

Additional observations from a re-analysis of the deposited data

Results flagged for a closer look

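Psma6 had a genotype difference that changed with time in a direct test, in which conditions stood in for replicates. The log2 difference between knock-in and crel-/- cells at 3 h minus that at 0.5 h was -0.47 (SE 0.06, edgeR adjusted p = 0.00362), with 1.76% of the genes tested lower in this sense. Psmd10 had a larger value that did not pass, -0.66 (SE 0.17, edgeR adjusted p = 0.0642), and 10 members were lower at an unadjusted p under 0.05. The share of all genes tested at that unadjusted threshold was not counted. With no filter, or without the crel-/- or the knock-in IL-1b 3 h library, 2 members passed. At 3 h the 3 crel-/- libraries were at 131, 143 and 137 CPM and the 3 knock-in libraries at 88.2, 97.9 and 93.95 CPM.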

How the results depend on the processing

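Scaling by library totals alone reversed 19 named members at LPS 3 h against 0 h, with log2 fold changes of -0.021 for Psmd10, -0.088 for Psmb2, -0.11 for Psma7, -0.19 for Psmb1, -0.20 for Psmb7, -0.23 for Psmb6, -0.24 for Psmd1, -0.27 for Psmd6, -0.29 for Psmd8, -0.31 for Psmd14, -0.36 for Psmd13, -0.36 for Psmd2, -0.36 for Psmd4, -0.37 for Psmd3, -0.38 for Psmc4, -0.39 for Psmd12, -0.40 for Psma1, -0.40 for Psmc6 and -0.42 for Psmc5. No named member reversed under another alternative run. With totals alone the counts of members called were 0 higher and 2 lower at 1 h, 2 higher for IL-1b, 3 higher and 24 lower for LPS and 5 higher for TNF at 3 h. For 3 h against 1 h they were 1 higher (IL-1b), 4 higher and 17 lower (LPS) and 4 higher (TNF). They were 0 higher and 25 lower for LPS against TNF, and 1 higher and 22 lower for LPS against IL-1b. Of the 14023 genes tested, totals alone called 3285 at 1 h, and 5108 (IL-1b), 10816 (LPS) and 5283 (TNF) at 3 h, in either direction. For 3 h against 1 h these were 2551 (IL-1b), 9935 (LPS) and 3163 (TNF), and for LPS against TNF and IL-1b 9447 and 9229. With no filter the counts of members were 0 higher at 1 h, 10 for IL-1b at 3 h, 1 (IL-1b) and 5 (TNF) for 3 h against 1 h, 1 lower for LPS against TNF and 2 lower for the genotype difference at 3 h against 0.5 h. RLE scaling and DESeq2 each gave 1 lower for LPS against TNF. The cause was not tested.

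Leaving out each library in turn gave 17 to 26 members higher for LPS, 0 to 21 for IL-1b and 8 to 15 for TNF at 3 h, 0 to 1 at 1 h, and 1 to 7 (IL-1b) and 1 to 4 (TNF) for 3 h against 1 h. It gave 1 to 1 lower for LPS against TNF, 1 to 3 for LPS against IL-1b, 1 to 3 for the genotype and 1 to 2 for 3 h against 0.5 h. In most of these fits fewer of all genes tested passed too than with all libraries, so a lower count is not particular to the members. Where this leaves 1 sample in a condition, that sample is assumed to vary like the others. The core to cap change was 0.29, 0.29 from medians, 0.27 without the chaperones and 0.24 with members sharing few words. The labels carry no replicate numbers, so no replicate block was fitted. Each fit holds genotype and condition, so tests of a condition are paired by genotype and tests of genotype by condition.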

Other observations

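The tested genes within 100000 bases of Psma6 (3) and Psmd5 (6) were looked at after the values were seen. The neighbours of most other members are not named here. Nfkbia, which encodes IkBa, lies on chromosome 12 from 55489411 to 55492647 (mm10), 70957 bases from Psma6 and on the opposite strand. Its log2 fold change at LPS 3 h was 3.95 (SE 0.83, edgeR adjusted p = 0.00239), and its log2 difference between knock-in and crel-/- cells was -2.65 (SE 0.35, edgeR adjusted p = 0.000772). 1110008L16Rik, 1689 bases from Psma6 on the same strand, fell at LPS 3 h (-1.19) and did not pass between genotypes (0.09). Ppp2r3c, 81222 bases from Psma6, passed neither test (-0.17 at LPS 3 h and 0.06 between genotypes). Traf1, an NF-kB signalling gene 66782 bases from Psmd5 and on the same strand, rose at LPS 3 h (6.82, edgeR adjusted p = 1.89e-08). Between genotypes Traf1 was lower in the knock-in (-1.36, edgeR adjusted p = 0.000116), while Psmd5 did not pass (-9e-04). Phf19, between Psmd5 and Traf1, fell at LPS 3 h (-1.26). On the other side of Psmd5, Hspa5 rose (0.56), and Fbxw2 (0.04), Rabepk (0.06) and Gapvd1 (0.02) did not pass. Fbxw2 and Rabepk lie nearer to Psmd5 than Traf1 does, at 23423 and 49822 bases. Csf3, 5284 bases from the member Psmd3 and on the same strand, rose at LPS 3 h (9.02, edgeR adjusted p = 0.00012). Csf3 was lower in the knock-in (-3.24, edgeR adjusted p = 0.00181), while Psmd3 did not pass between genotypes (0.017). Whether members change together with their neighbours was not tested.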
